A study of Arabidopsis thaliana with 12 samples.

Results

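The UDP-glycosyltransferases (UGTs) of Arabidopsis were followed in young rosette leaves of wild type and of the 3 cuticular mutants bdg, fdh and lcr. Members were the probe sets of the ATH1 array that the platform annotation pairs with 1 gene whose symbol starts with UGT and a digit. The rule found 47 probe sets, each for a different gene, among the 22746 tested, of which 13513 have 1 named gene. A further 3 probe sets pair a UGT with another gene and were left out. The RefSeq gene table holds 58 genes with such a symbol, and 47 of them are represented.

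Each genotype was measured on 3 arrays, one for each independent sample, and every sample pooled young leaves of 15 plants. Wild type was Columbia-0 and carried no lesion. The bdg plants (bdg-2) carried a 7-bp deletion in exon 1 of BODYGUARD, the fdh plants (fdh-3940) a 2-bp insertion in exon 1 of FIDDLEHEAD, and the lcr plants (lcr-3P77) a 1169-bp insertion in the 5′ UTR of LACERATA. All plants grew on soil in short days of 8 h light at 20°C and 16 h dark at 18°C, and were 5.5 weeks old at harvest. Leaves were 2 mm to 1 cm long. Each mutant was thus 1 allele. None of the 3 mutated genes has a probe set named with 1 gene, so the labels were not checked against them. Values are log2 expression values made with GCRMA, a method that corrects for background and scales the arrays together. A difference of 1 is a 2-fold change.

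UGTs move a sugar, most often glucose, from a UDP-sugar onto a small molecule, and share a sequence motif near the C-terminus that binds the sugar donor. Their acceptors in Arabidopsis include flavonols and anthocyanidins, hydroxycinnamates and monolignols, plant hormones, salicylate, glucosinolate precursors and foreign chemicals. Glycosylation changes solubility, storage and activity of the acceptor, and in plants the enzymes are numbered by family (UGT71, UGT72 and so on) and lettered within it by sequence likeness.

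The detected UGTs were a minority. The lowest of the 12 array medians was 4.56, the highest 4.70, and values under 4.56 (the floor below) were not shown to be above background. At or above it on all 12 arrays lay 14 members (29.8%), against 44% of all probe sets. On no array did 26 members (55.3%) reach it, against 43.3% of all probe sets. The other 7 members reached it on some arrays. Of the 26, 15 varied by less than 0.2 between their lowest and highest array. Those 15 probe sets were too low and flat to compare the genotypes.

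The arrays differed in a measure of RNA quality. The 3′ probe set of GAPDH exceeded its 5′ probe set by 3.38 on wild type array 2 and by 3.17 on bdg array 1, by 2.44 on lcr array 1, and by 1.32 to 1.98 on the other 9. The same difference for actin was highest on these 3 arrays too, at 6.27 on lcr array 1, 6.07 on bdg array 1 and 5.98 on wild type array 2, against 4.64 to 5.11 elsewhere. Results were also computed without wild type array 2 and bdg array 1 together, and without each array alone. The leaf marker RCA, Rubisco activase, was high on every array with a wild-type mean of 14.24. Of 4 trichome markers listed, the 2 with a named probe set are the regulators GIS and TRY, and their mean level was 7.09 to 8.68 on the wild-type arrays, 6.29 to 7.66 in bdg, 6.19 to 7.07 in lcr and 5.44 to 6.08 in fdh. GIS fell by 2.41 in fdh (limma, adjusted p = 0.0399), and TRY differed by -1.79 (adjusted p = 0.129). GL1 and GL2 were not analysed here. The part of these lower trichome markers in the UGT results was not tested, and in pooled leaf RNA fewer cells of a type and less RNA per cell cannot be told apart. The epidermis, root, floral and vascular lists had no named probe set.

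In fdh leaves limma called 1 UGT higher, from wild-type values under the floor, and 1 lower. Both calls were lost in some of the alternatives given below. UGT73B1 rose and the flavonol rhamnosyltransferase gene UGT78D1 fell by limma with Benjamini-Hochberg adjustment over all probe sets, 2 of 47 members against a background of 2.17% of all probe sets. In the upward direction the background was 1.53%, and downward 0.633%. At an unadjusted p under 0.05, 10 members were higher in fdh, against 7.9% of all probe sets, and 2 lower, against 7.01%. On 10 members all 3 fdh arrays exceeded all 3 wild-type arrays, against 8.34% of all probe sets, and on 2 members all fdh arrays lay below, against 8.55%. These counts are a description, and no test compared the family with the other probe sets.

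No member passed limma's threshold in lcr or in bdg. The background of calls was 0.4% in lcr and 0.11% in bdg. At an unadjusted p under 0.05 limma gave 4 members in lcr, against 7.91% of all probe sets, and 4 in bdg, against 4.22%. All lcr arrays were above all wild-type arrays for 3 members (5.36% of all probe sets) and below for 1 (3.59%). The counts for bdg were 3 above (2.89%) and 1 below (2.29%). Groups of 3 arrays cannot give an exact permutation p under 0.1 for a single probe set, so the p-values given are limma's.

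The Rank Product, which ranks the 9 mutant to wild type ratios of each probe set, called 12 members in fdh, 7 in lcr and 6 in bdg at a pfp (percentage of false positives) under 0.05. Its background was 17.1%, 11.3% and 7.23% of all probe sets. The 9 ratios share their arrays while the permutation used here treated them as separate, so this pfp is too small. It called far more probe sets than the genes the paper reports from its own Rank Product. With values permuted within arrays, a scheme chosen after seeing the data, UGT72E1 was the 1 member called in fdh (pfp = 0.0054; background 1.89%), a call that was lost without any 1 of the fdh arrays. No member was called in lcr (background 1.13%) or in bdg (0.55%) under that scheme.

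**Figure D1:**
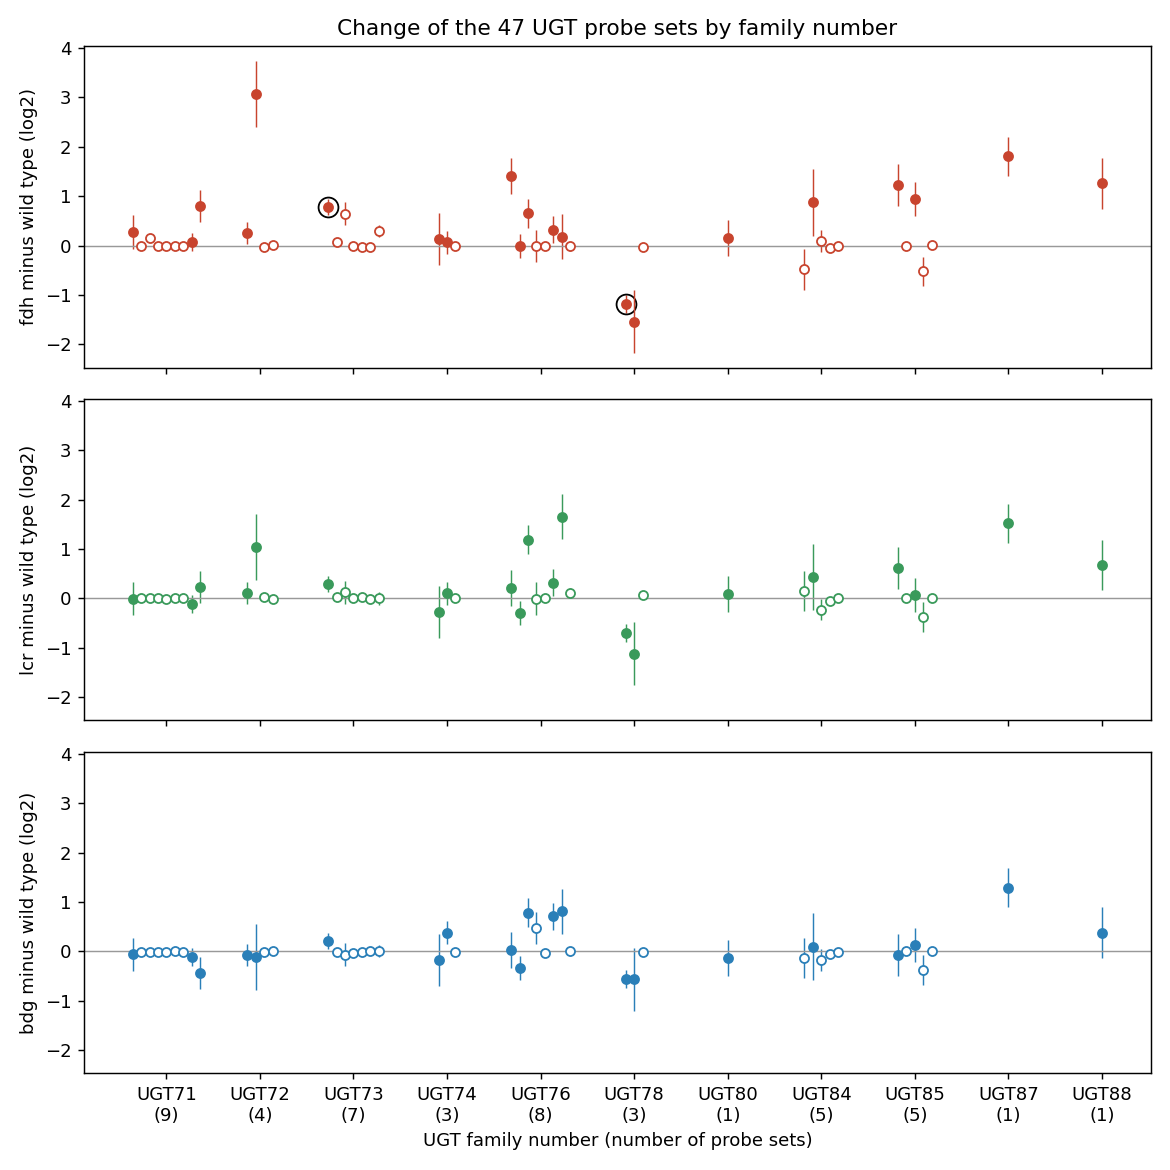
Log2 change of the 47 UGT probe sets in fdh, lcr and bdg against wild type, by UGT family number. Points are limma estimates and bars their standard errors; open points never reached the floor of 4.56 on any array, and a ring marks an adjusted p under 0.05. In fdh UGT78D1 (-1.18) and UGT73B1 (0.78) are ringed, and the highest point is UGT72E1 at 3.08.

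The flavonoid group held the clearest fall. UGT78D1 (At1g30530) codes for the enzyme that adds rhamnose to the 3 position of flavonols, and UGT78D2 (At5g17050) for the flavonoid 3-O-glucosyltransferase that also serves anthocyanins. UGT78D1 measured 11.39, 10.94 and 11.02 in wild type and 10.00, 9.96 and 9.86 in fdh. In lcr it measured 10.35, 10.35 and 10.56, and in bdg 10.55, 10.93 and 10.20. Every mutant array thus lay below every wild-type array, with bdg array 2 just below wild type array 2 and the 3 fdh arrays lowest of all 12. The means were 11.12 ± 0.24 (SD, n = 3) in wild type and 9.94 ± 0.07 in fdh, a change of -1.18 ± 0.18 (SE), or 2.27-fold lower (limma, adjusted p = 0.0158).

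For UGT78D1 the differences in the other mutants were smaller. The changes of -0.70 in lcr (adjusted p = 0.216) and -0.56 in bdg (adjusted p = 0.799) did not pass limma's threshold. Between the mutants, fdh was 0.62 below bdg, with a 95% confidence interval of -1.02 to -0.22 (limma, adjusted p = 0.160), and -0.48 from lcr (adjusted p = 0.517). Neither difference passed. The call in fdh was lost without wild type replicate 1 (adjusted p = 0.0504), fdh replicate 1 (0.0601) or fdh replicate 2 (0.0615) and with only fdh and wild type in the limma fit (0.0725). Without wild type array 2 and bdg array 1 it stood at an adjusted p of 0.0476.

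UGT78D2 had lower means in the mutants, with a wide spread. It measured 10.59, 9.82 and 8.37 in wild type, 8.37, 7.99 and 7.83 in fdh, 9.18, 8.30 and 7.95 in lcr, and 9.70, 9.48 and 7.90 in bdg. The first 2 wild-type arrays were above every fdh and lcr array, while wild type array 3 lay level with fdh array 1 when rounded. Array 3 was the lowest of its group in all 4 genotypes. The change in fdh was -1.54 ± 0.64 (SE; adjusted p = 0.296), in lcr -1.12 (adjusted p = 0.830) and in bdg -0.57, and none passed limma's threshold. Arrays 1 and 2 of bdg lay within the wild-type range, and the bdg change was -0.0062 without bdg replicate 3. Leaving out wild type replicate 1 gave -0.072 in bdg and -0.62 in lcr. UGT78D3, a flavonol arabinosyltransferase gene beside UGT78D2, stayed at 3.39 to 3.64 on all 12 arrays, under the floor.

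Phenylpropanoid UGTs act on hydroxycinnamates and on the alcohols and aldehydes from which lignin is made. Of the 10 listed, 8 were members, 5 of these reached the floor on no array, and none passed limma's threshold. UGT72E1 (At3g50740), which glucosylates coniferyl aldehyde, measured 3.56, 5.04 and 5.82 in wild type and 7.86, 7.68 and 8.13 in fdh. It measured 4.13, 3.98 and 5.97 in bdg and 5.44, 5.55 and 6.59 in lcr. All fdh arrays were more than 1 unit above every other array, and array 3 was the highest of its group in all 4 genotypes. Wild type array 1 and bdg arrays 1 and 2 were under the floor. The differences of fdh from wild type and from bdg thus rest partly on values not shown to be above background.

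The mean of UGT72E1 was 4.81 ± 1.14 (SD, n = 3) in wild type and 7.89 ± 0.23 in fdh. This change of 3.08 ± 0.67 (SE), or 8.45-fold, was the largest of any member in any mutant and missed limma's threshold with an adjusted p of 0.0543. It passed with replicate number as a block (adjusted p = 0.0175), among probe sets that passed a filter on low values (0.0145), with a trend in the variance (0.0373) and without wild type replicate 3 (0.0418). It missed in the other alternatives, among them only fdh and wild type in the limma fit (0.155) and without wild type array 2 and bdg array 1 (0.125). Without wild type replicate 1 the change was 2.46 (limma, adjusted p = 0.126). Without any 1 fdh array the adjusted p was 0.0891 to 0.188. Between mutants, fdh exceeded bdg by 3.19 (95% confidence interval 1.68 to 4.71; limma, adjusted p = 0.0725) and lcr by 2.03 (0.52 to 3.54; adjusted p = 0.434). The changes in lcr (1.05) and bdg (-0.11) were within the spread of the arrays. Its relatives UGT72E2, which acts on the monolignols, and UGT72E3 did not exceed 2.21 on any array.

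The UGT84A enzymes make glucose esters of hydroxycinnamates. UGT84A3 spread widely within genotypes, with 5.41, 3.57 and 6.40 in wild type, 5.75, 5.53 and 6.73 in fdh, 5.15, 5.53 and 6.02 in lcr and 4.58, 5.85 and 5.23 in bdg. Wild type array 2, which stands apart by its GAPDH ratio, held the lowest value, and the groups overlap. The change in fdh was 0.88 ± 0.68 (SE; limma, adjusted p = 0.692), and 0.098 without that array. UGT84A1 lay under the floor throughout, between 2.53 and 4.10. It differed by -0.48 in fdh, and by -0.077 without wild type replicate 1, which held the 4.10.

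**Figure D2:**
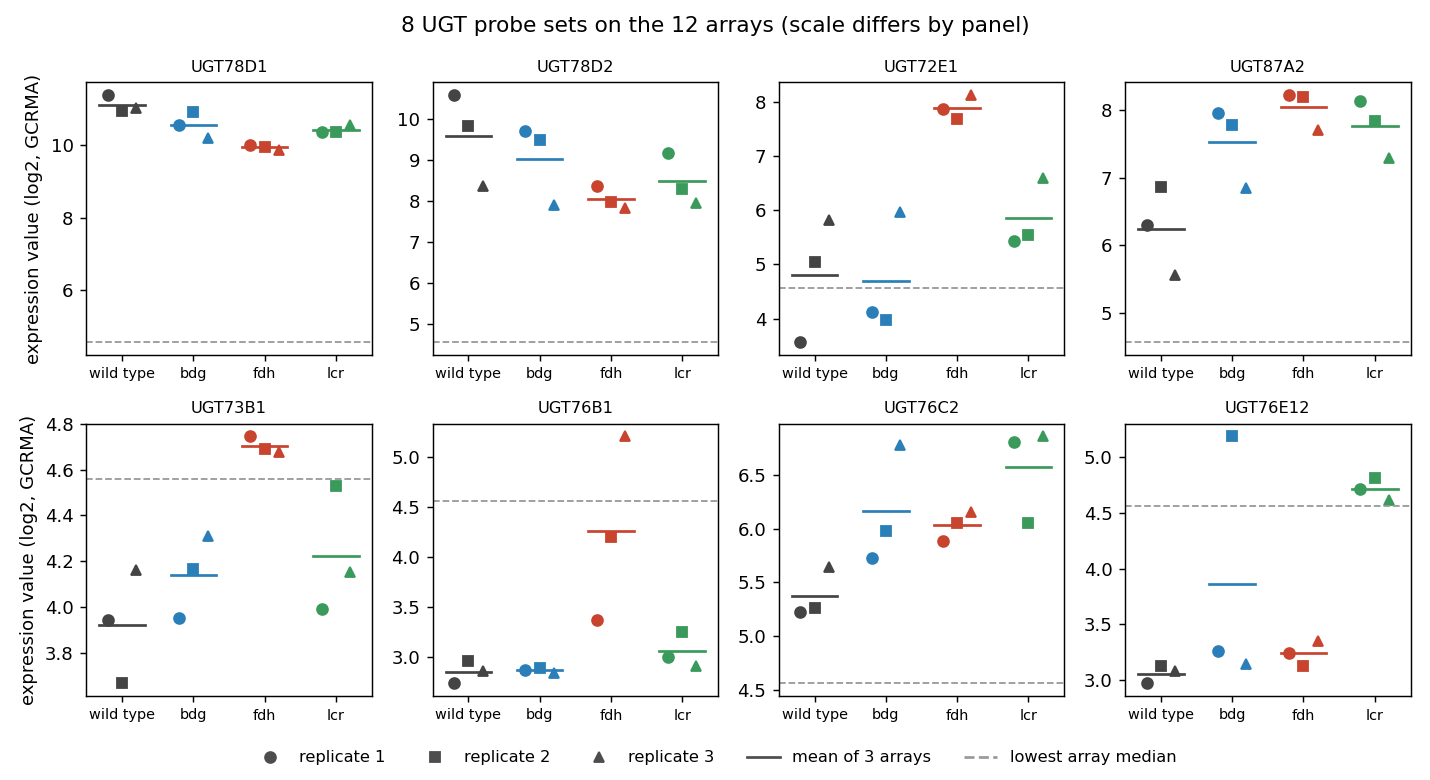
Log2 expression values of 8 UGT probe sets on each of the 12 arrays, by genotype, with marker shape giving the replicate, a bar the mean of 3 arrays and the dashed line the floor of 4.56. For UGT78D1 all 9 mutant arrays lie below the wild-type arrays; for UGT72E1 the fdh arrays sit between 7.68 and 8.13, above all others.

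Among UGTs of the defence hormone salicylate, UGT76B1 (At3g11340) had its largest difference in fdh. This enzyme glucosylates isoleucic acid, salicylate and N-hydroxypipecolate and restrains immune responses. It measured 3.37, 4.20 and 5.21 in fdh, and 2.74 to 2.96 in wild type, 2.85 to 2.89 in bdg and 2.91 to 3.26 in lcr. All fdh arrays were above all others, but fdh array 3 was the sole array of the 12 over the floor. The change of 1.41 ± 0.36 (SE) in fdh had an adjusted p of 0.0960 by limma, and passed without fdh replicate 1 (0.0287). Without fdh replicate 3 it was 0.93. The lcr and bdg means differed from wild type by 0.21 and 0.02. UGT74F1 and UGT71C3, which act on salicylate and its methyl ester, were under the floor on all arrays.

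Cytokinin UGTs differed among themselves. UGT76C2 (At5g05860), which makes the inactive N-glucosides of cytokinins, measured 5.22, 5.26 and 5.64 in wild type, 5.73, 5.98 and 6.78 in bdg, 5.89, 6.05 and 6.15 in fdh, and 6.80, 6.05 and 6.86 in lcr. Every mutant array was above every wild-type array, with lcr highest by its mean of 6.57 ± 0.45 (SD, n = 3). The changes of 1.19 ± 0.29 (SE) in lcr (adjusted p = 0.192), 0.79 in bdg (adjusted p = 0.976) and 0.65 in fdh (adjusted p = 0.347) did not pass limma's threshold.

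The neighbouring gene UGT76C1, whose product does the same reaction, showed no such separation. Its values were 6.12, 7.13 and 6.53 in wild type, and 6.11 to 6.93 over the 9 mutant arrays. Its changes were -0.29 in lcr, -0.34 in bdg and -0.01 in fdh, and the lcr value was -0.021 without wild type replicate 2. The zeatin O-glucosyltransferase gene UGT73C1 was under the floor on all arrays.

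For abscisic acid, UGT71C5 (At1g07240), the main enzyme that forms its glucose ester, measured 6.05, 6.54 and 5.71 in wild type and 6.96, 7.10 and 6.64 in fdh. It measured 6.20, 5.44 and 5.34 in bdg and 6.04, 6.90 and 6.04 in lcr. All fdh arrays were above all wild-type and all bdg arrays, while bdg and lcr overlapped wild type. The change was 0.80 ± 0.32 (SE) in fdh (limma, adjusted p = 0.285) and -0.44 in bdg, and fdh exceeded bdg by 1.24 (95% confidence interval 0.50 to 1.97; adjusted p = 0.126). UGT71B6 and UGT71B8, which glucosylate the same hormone, were under the floor on all 12 arrays.

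The remaining listed roles showed no separation between genotypes. UGT74D1, an auxin glucosyltransferase gene, lay between 8.45 and 9.53, and its largest change was 0.37 in bdg (95% confidence interval -0.15 to 0.90). UGT74B1, which glucosylates thiohydroximates in glucosinolate synthesis, lay between 8.00 and 9.81, with changes of -0.27 in lcr to 0.13 in fdh. UGT80B1, a sterol glucosyltransferase gene, lay between 5.10 and 6.56 and differed by -0.13 in bdg to 0.15 in fdh. For none of the 3 does the interval exclude a moderate change. The auxin gene UGT84B1 was under the floor, and the 2 brassinosteroid UGTs listed had no member.

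Several of the larger differences were in UGTs on none of the role lists. UGT73B1 (At4g34138), the member that rose in fdh, measured 3.94, 3.67 and 4.16 in wild type and 4.75, 4.69 and 4.68 in fdh. It measured 3.95, 4.16 and 4.31 in bdg and 3.99, 4.53 and 4.15 in lcr. The 3 fdh arrays agreed within 0.1 and were the sole arrays over the floor, so the change of 0.78 ± 0.16 (SE), or 1.72-fold (limma, adjusted p = 0.0458), starts from wild-type values not shown to be above background.

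This call was close to the threshold. It was lost in 10 of the alternatives run, among them the fit without wild type array 2 and bdg array 1 (adjusted p = 0.106), the fit with replicate number as a block (0.0564), and the fits without any 1 of wild type replicate 1 (0.113), wild type replicate 2 (0.118), fdh replicate 1 (0.179), fdh replicate 2 (0.141) or fdh replicate 3 (0.0661). Only the fit without wild type replicate 3 kept the call (limma, adjusted p = 0.0390). The filter on low values left this probe set out. Against the other mutants, UGT73B1 in fdh was 0.56 above bdg (limma, adjusted p = 0.160) and 0.48 above lcr (adjusted p = 0.443). The closely related UGT73B2 and UGT73B3 share 1 probe set, which was not counted as a member and differed by 1.73 ± 0.88 (SE) in fdh (adjusted p = 0.427).

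UGT87A2 (At2g30140), known to act in the control of flowering time, was higher in all 3 mutants by its means. It measured 6.29, 6.87 and 5.56 in wild type, 8.23, 8.19 and 7.71 in fdh, 8.14, 7.85 and 7.30 in lcr, and 7.96, 7.78 and 6.84 in bdg. All fdh and lcr arrays were above all wild-type arrays, and bdg array 3 fell just under wild type array 2. Array 3 was the lowest of its group in all 4 genotypes. The changes were 1.81 ± 0.40 (SE; 3.50-fold) in fdh, with an adjusted p of 0.0568 by limma, 1.52 in lcr (adjusted p = 0.235) and 1.29 in bdg (adjusted p = 0.738). With replicate number as a block the fdh value (adjusted p = 0.0093) and the lcr value (0.0295) passed, and among probe sets over the filter on low values the fdh value passed (0.0204). The fdh value also passed with a trend in the variance (0.0433). It missed in the other alternatives, among them only fdh and wild type in the limma fit (0.166) and without any 1 fdh or wild-type array (0.0567 to 0.221). The lcr value missed in every alternative but the block.

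UGT76E12 (At3g46660) differed most in lcr. It measured 4.72, 4.81 and 4.61 in lcr, 2.97, 3.12 and 3.08 in wild type, 3.25, 3.12 and 3.35 in fdh, and 3.26, 5.19 and 3.14 in bdg. The lcr arrays and bdg array 2 were over the floor and the other 8 arrays were under it. The change of 1.66 ± 0.45 (SE) in lcr had an adjusted p of 0.257 with all 12 arrays in the limma fit and passed with only lcr and wild type in it (0.0306), a fit that leaves out the spread of bdg. The bdg change of 0.81 was 0.14 without bdg replicate 2. The fdh mean was 1.47 below that of lcr (adjusted p = 0.379).

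The neighbour UGT76E11 (At3g46670) had its highest mean in bdg. It measured 8.37, 8.90 and 8.65 there, all above the wild-type values of 7.94, 7.63 and 8.22, while fdh (7.85, 8.23 and 8.67) and lcr (8.01, 8.02 and 8.73) overlapped wild type. The change of 0.71 ± 0.27 (SE) in bdg did not pass limma's threshold (adjusted p = 1.00).

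UGT88A1 (At3g16520), UGT85A2 and UGT85A4 had higher means in fdh that did not pass. UGT88A1 was at 10.77, 10.81 and 10.69 in fdh and at 9.41, 8.61 and 10.45 in wild type, with bdg at 9.03, 9.86 and 10.70 and lcr at 9.74, 10.09 and 10.68. The fdh arrays were nearly equal while those of the other genotypes spread more widely. The change was 1.26 ± 0.51 (SE; limma, adjusted p = 0.285), and 0.82 without wild type replicate 2.

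UGT85A2 (At1g22360) measured 7.76, 7.52 and 6.84 in fdh and 5.84, 5.68 and 6.92 in wild type, so that fdh array 3 lay under wild type array 3. Its change was 1.23 ± 0.42 (SE; limma, adjusted p = 0.203). UGT85A4 (At1g78270) measured 4.76, 4.57 and 3.74 in fdh and 3.35 to 3.47 in wild type, a change of 0.94 ± 0.34 (SE; adjusted p = 0.220), with 2 arrays over the floor. UGT85A5 differed by -0.52 in fdh, from values of 3.04, 3.20 and 4.31 in wild type, all under the floor, and by -0.12 without wild type replicate 3.

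A pair of members outside the rule for named genes stood out and was picked after the values were seen. UGT73B5 was at 3.92 and 3.86 on fdh arrays 1 and 2 but 2.95 on fdh array 3, and at 2.74 to 3.34 elsewhere. UGT76D1 was at 3.87 on bdg array 1, an array with a high GAPDH ratio, and at 2.37 to 2.45 on the other 11. Neither reached the floor.

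**Figure D3:**
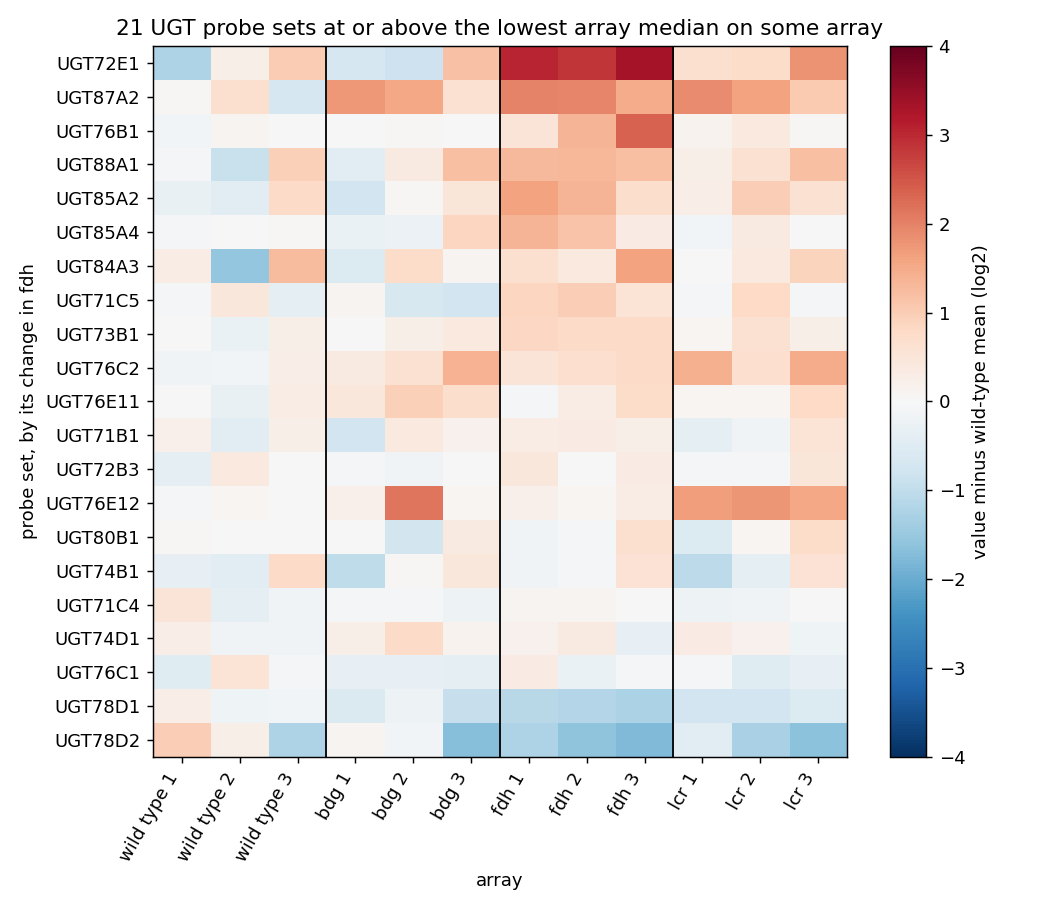
Values of the 21 UGT probe sets that reached the floor on at least 1 array, minus the wild-type mean of each (log2, colour), for the 12 arrays, ordered by the change in fdh. UGT72E1 tops the order, with a change of 3.08 in fdh, and UGT78D1 and UGT78D2 close it with -1.18 and -1.54.

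By family number, the changes were spread over families rather than gathered in 1. UGT71 had 9 members, 6 of them under the floor on all arrays, and a median change of 0.00 in fdh. UGT76, with 8 members, had the widest range in lcr, from -0.29 to 1.66, and its median was 0.09 in fdh, 0.25 in bdg and 0.16 in lcr. The 7 UGT73 members, 6 of them under the floor throughout, had a median of 0.08 in fdh and held the 1 riser by limma.

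UGT78 was the family with no mean above wild type in fdh, with 0 of 3 members higher and a median of -1.18, and it held the 1 member that fell. UGT72 (4 members) ranged from -0.02 to 3.08 in fdh, UGT84 (5) from -0.48 to 0.88 and UGT85 (5) from -0.52 to 1.23. UGT74 had 3 members, with changes of -0.01 to 0.13 in fdh, and UGT80, UGT87 and UGT88 had 1 each. These are descriptions over few members, and no test compared families. The median change over all 47 members was 0.01 in fdh, with -0.01 over all probe sets. It was 0.01 for the lcr arrays (0.00 over all probe sets) and -0.01 for the bdg arrays (-0.01).

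Among the 14 members at or above the floor on all 12 arrays the mean was higher in fdh for 11, with a median change of 0.22, against -0.04 over all 10009 probe sets of that kind. In lcr 8 were higher (median 0.09, against 0.01) and in bdg 5 (median -0.10, against -0.01). Of the 10009, 4652 had a higher mean in fdh, while lcr had 5132 and bdg 4833. Over all 47 members, 27 fdh means lay above wild type, against 9279 of all 22746 probe sets. The lcr means were higher for 34 members (12300 of all probe sets) and the bdg means for 15 (8787). The 47 include the 26 members that reached the floor on no array, whose values were not shown to be above background. None of these counts was tested.

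Many UGT genes stand side by side in the genome, and some neighbours had unlike changes. In the order of genes, 18 pairs of members had at most 2 genes between them, 14 with none, and 31 of the 47 members were in such a pair. UGT85A2 differed by 1.23 in fdh and the adjacent UGT85A5 by -0.52. UGT84A3 differed by 0.88 and the adjacent UGT84A1 by -0.48. Of these, UGT85A5 was at -0.12 with wild type replicate 3 left out, UGT84A3 at 0.098 with replicate 2 left out and UGT84A1 at -0.077 with replicate 1 left out. In lcr UGT76C2 differed by 1.19 and the adjacent UGT76C1 by -0.29 (-0.021 without wild type replicate 2), and UGT76E12 by 1.66 where UGT76E11 differed by 0.32. For UGT78D2 and UGT78D3 the values in fdh were -1.54 and -0.03, the second from a probe set under the floor. The differences within pairs were not tested.

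**Figure D4:**
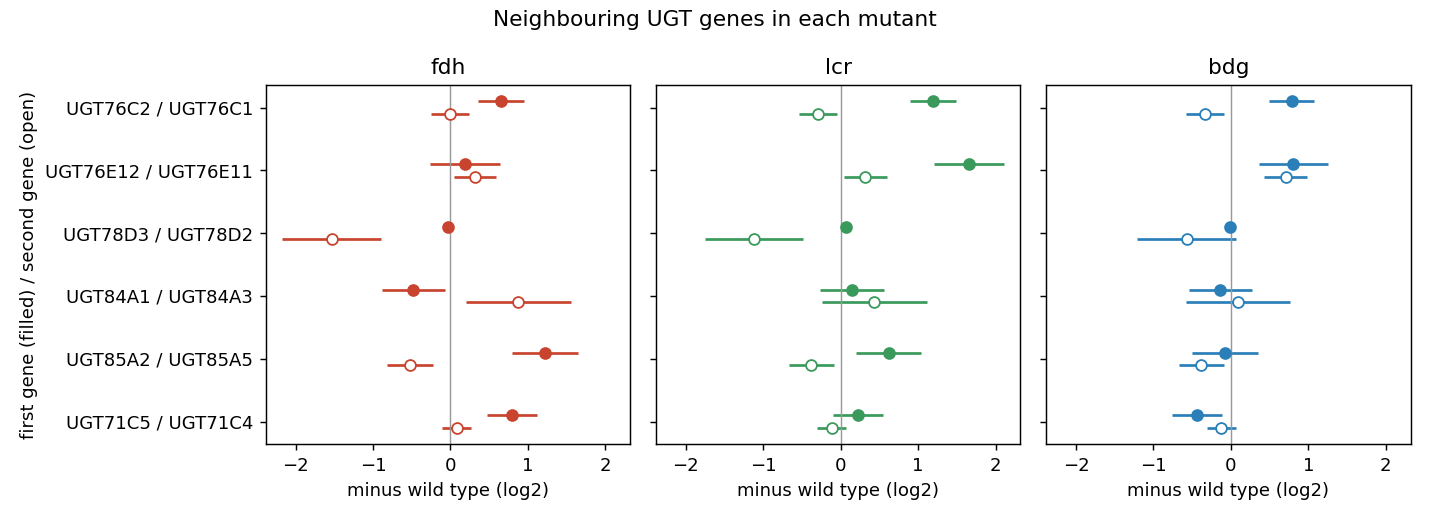
Log2 change against wild type, with standard error, of 6 of the 18 neighbouring pairs, picked after the values were seen, in fdh, lcr and bdg; the first gene of each pair is the filled point and the second the open one. In lcr UGT76C2 (1.19) and UGT76E12 (1.66) sit to the right of their neighbours (-0.29 and 0.32).

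With the mean of the 3 mutants set against wild type by limma, 1 member passed, against 0.822% of all probe sets. This was UGT78D1, with all 9 mutant arrays under the 3 of wild type. Its exact permutation p of 0.0045, unadjusted and the smallest that 9 against 3 arrays can give, only restates that separation. By limma UGT78D1 was 0.81 lower, at -0.81 ± 0.15 (SE; adjusted p = 0.0455). This call too was lost in 13 of the alternatives run, among them the fit without wild type array 2 and bdg array 1 (adjusted p = 0.125), that with replicate number as a block (0.0746), and those without any 1 wild-type, fdh or lcr array or bdg array 1 (0.0664 to 0.177). All 9 mutant arrays were above wild type for UGT76C2 and UGT76E12, against 1.45% of all probe sets, and under it for UGT78D1, against 0.633%. For UGT76E12 all 3 wild-type and 5 of the mutant arrays were under the floor, and fdh array 2 was barely above wild type array 2. UGT87A2 differed by 1.54 ± 0.32 (SE; limma, adjusted p = 0.0873) and UGT76C2 by 0.88 (adjusted p = 0.207). With replicate number as a block the 1 member called was UGT87A2 in place of UGT78D1, and both were called with the filter on low values. The comparisons of each mutant share the 3 wild-type arrays, so their likeness is not independent.

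Between mutants no member passed limma's threshold. The background was 0.761% of all probe sets for fdh against bdg, 0.0879% for fdh against lcr and 0.0044% for lcr against bdg. At an unadjusted p under 0.05 there were 10 members for fdh against bdg, against 12.9% of all probe sets, 7 for fdh against lcr (7.84%) and 0 for lcr against bdg (3.1%). Of the 10, 9 were higher in fdh, against 6.77% of all probe sets, and 1, UGT78D1, lower, against 6.12%. A difference between the mutants for UGT72E1, UGT76B1 or UGT71C5 is therefore not established by this test. All fdh arrays lay above all bdg arrays for 9 members, these among them, against 8.76% of all probe sets. UGT72E1 passed for fdh against bdg with replicate number as a block and with the filter on low values.

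Arrays with replicate number 3 were lowest or highest in every genotype for some members, at shares near those over all probe sets. Array 3 was the lowest of its group in all 4 genotypes for 4 members, UGT74D1, UGT78D2, UGT84A1 and UGT87A2, against 6.65% of all probe sets. It was the highest in all 4 for UGT72E1, UGT74B1 and UGT76C2, against 8.08%. The samples were gathered in sequential rounds, but the labels do not say that a number marks a round, and the part of the rounds in these values was not tested.

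Of the pathways that feed or share acceptors with UGTs, few genes had a named probe set. Of the flavonoid enzymes listed, dihydroflavonol reductase (DFR) measured 2.06, 2.37 and 6.57 in wild type and 5.29, 2.31 and 4.07 in fdh, a spread too wide to compare them. Its changes were 0.23 ± 1.17 (SE) in fdh (limma, adjusted p = 1.00), -1.12 in lcr and -1.11 in bdg. BAN, anthocyanidin reductase, was under the floor on all arrays. USP, a UDP-sugar pyrophosphorylase that supplies the donors, differed by -0.002 in fdh. BSMT1, which methylates salicylate, was under the floor on all arrays. None of these 4 genes passed limma's threshold in any mutant.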

How the data were processed

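Total RNA was hybridised to ATH1 arrays, 12 in all. The authors deposited a log2 value per probe set and array from GCRMA, whose version is not given in the sources used here, and these values were taken unchanged. GCRMA adjusts for probe composition and normalises the arrays jointly, so only relative changes can be seen, and low values are compressed. Of 22810 probe sets, 64 are the manufacturer's controls and were not tested. Arrays give no depth, and their number limits the precision.

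Tests were made in R 4.3.3 with limma 3.58.1, with all 12 arrays in one model and Benjamini-Hochberg adjustment (adjusted p under 0.05), over all probe sets. The Rank Product named in the study's methods was written anew, with 100 permutations, so its permutation scheme may differ from the study's. It was tested like limma on simulated data, where permuting ratios as separate called many unchanged probe sets. That version was therefore given second place, and a scheme that permutes values within arrays was added. With ratios permuted, 3896 probe sets were called in fdh, 2567 in lcr and 1644 in bdg, far above the paper's counts at that pfp. The added scheme called 429, 258 and 125, close to the paper's counts. Genes were named where limma or the Rank Product called them against wild type (or limma between mutants), where they were among the 4 largest changes each way in a mutant, or among the 5 highest wild-type means. Members and lists were chosen with earlier results of these data known. Gene names came from the platform annotation, and gene order from the RefSeq table (TAIR10.1). Alternatives were a filter (log2 value over 5 on at least 3 arrays), a second quantile normalisation, replicate number as a block, a variance trend, only the 2 groups compared, a pfp under 0.01, and leaving out arrays. Samples were separate pools of plants, so p-values measure the spread between pools. No sequence was printed because no sequence table was used here.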

Additional observations from a re-analysis of the deposited data

How the results depend on the processing

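By limma, the 2 members called in fdh became 1 with a second quantile normalisation or without wild type array 2 and bdg array 1 (UGT78D1 in both), 0 with only fdh and wild type fitted, and 0 to 3 when each replicate was left out in turn (0 without wild type replicate 1 or fdh replicate 2, 1 without wild type replicate 2 or fdh replicate 1). They became 3 with the filter (5.82% of all tested probe sets called), the variance trend (2.09%) or the replicate block (3.72%). These were UGT72E1, UGT78D1 and UGT87A2. The share was 1.92% with the second normalisation, 1.24% without wild type array 2 and bdg array 1, and 0.233% with 2 groups fitted. Without single replicates it was 0.532% to 3.75%. The count of 0 in lcr became 1 with the replicate block (UGT87A2), against 0.668%. It became 1 with only lcr and wild type fitted (UGT76E12), against 0.0264%, and was 0 without single replicates. For fdh against bdg the count of 0 became 1 with the filter and 1 with the replicate block (UGT72E1 in both), against 2.74% and 1.48%. It became 0 to 2 without single replicates (2 without fdh replicate 3, UGT71B6 and UGT73B5, against 2.54%). For fdh against lcr it was 0 to 1 (1 without fdh replicate 3, against 0.695%). For lcr against bdg it was 0 to 1 (1 without bdg replicate 2, against 0.00879%). The 1 member called for the 3 mutants together became 2 with the filter, against 2.5%. It became 0 with the mutants fitted as 1 group (0.541%) or without wild type array 2 and bdg array 1 (0.589%). Without single replicates it was 0 to 2, against 0.374% to 1.06%. The count of 0 in bdg held under every limma alternative, against 0.0044% to 0.444%.

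By Rank Product with ratios permuted, the filter left 6 members in fdh, 4 in lcr and 2 in bdg. Single replicates left out gave 8 to 10 in fdh, 3 to 9 in lcr (3 without wild type replicate 1) and 1 to 7 in bdg (1 when wild type replicate 1 was dropped, 2 when replicate 2 of wild type was, and 3 for bdg replicate 2 or 3). Leaving out wild type array 2 and bdg array 1 gave 2 in bdg, and values permuted within arrays gave 1 in fdh, 0 in lcr and 0 in bdg. In that scheme fdh had 0 to 2 without single replicates (0 without any 1 fdh replicate, 2 without wild type replicate 2) and 2 without wild type array 2 and bdg array 1, and lcr had 1 with a second quantile normalisation. The causes were not tested.

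For the named members, 381 values under alternatives covered 32 results. Direction and side of limma's threshold held in 342, 27 lost the call and 10 gained it. Only UGT73B1 and UGT78D1 in fdh and UGT78D1 in the 3 mutants together were called at the start. All 27 losses were theirs. The other results had no call to lose, so the 342 are no measure of stability. Both reversals were of UGT85A5 without wild type replicate 3, at 0.019 in lcr and 0.017 in bdg, with ranges over single replicates left out of -0.61 to 0.019 and -0.62 to 0.017. Same-numbered samples deviated together in part, with r over 0.1 in 14 of 18 pairs (from -0.36 to 0.73) and 7 of 12 samples best matched by their own number. The highest r between genotypes was of unlike numbers, wild type 2 and bdg 1 (0.74), the arrays with the highest GAPDH ratios. The 6 pairs of number 3 had r of 0.37 to 0.73, a hint from the data and not from the design.

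Among the 26 members that never reached the floor, low values are compressed and small changes could not be seen. With 3 arrays for each genotype and a tested family of 22746 probe sets, several intervals reach from little change to several-fold, and a missed threshold does not show equal levels. Each mutant is 1 allele in 1 growth setting.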
